A study of Homo sapiens with 4 samples.

Results

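The genes described here are 9 enzymes and transporters of the oxidative stress response that are known targets of the transcription factor NRF2: NQO1, GCLM, GCLC, TXNRD1, SRXN1, HMOX1, AKR1B10, AKR1C1 and SLC7A11. They were chosen by name, through the transcripts that the array probes are assigned to, and all 9 were among the 19550 genes tested. Together they had 11 probes, with 2 each for AKR1B10 and AKR1C1. All 11 probes were well above background on all 4 arrays.

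RNA was taken from Ca9-22 cells, an established cell line of gingival squamous cell carcinoma, grown in serum-containing medium. The comparison was between 2 negative control samples and 2 samples with knockdown of KPNA4, an importin alpha that carries proteins with a nuclear localization signal into the nucleus. The labels date the harvest to 3 days after transfection of siRNA, whereas the study's text describes knockdown with short hairpin RNAs, and the labels name no other difference between the groups. The replicates are called biological with nothing further on separate cultures, so p-values measure the spread between these samples, which may be technical.

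NRF2, encoded by NFE2L2, is held in the cytoplasm by KEAP1, an adaptor that passes it to a CUL3 ubiquitin ligase for degradation. Oxidants and electrophiles modify KEAP1, NRF2 then enters the nucleus, pairs with a small MAF protein and binds antioxidant response elements near its target genes. BACH1 competes for the same elements. The targets make glutathione, keep thioredoxin and peroxiredoxins reduced, supply NADPH, handle heme and iron, and remove reactive carbonyls. Many squamous carcinomas carry an active NRF2 program.

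The core of the antioxidant response element, TGACNNNGC, was searched on both strands of RefSeq promoter windows of GRCh38.p14, which run from 250 bases before to 50 bases after each transcription start. It was present in 2 of the 6 members that had a window, GCLM and TXNRD1. These 6 members had 7 windows, and both windows of TXNRD1 held the core. Among the windows of all genes it was in 4687 of 35116, which is 13.3% of windows rather than of genes. HMOX1, AKR1B10 and SLC7A11 had no window. The windows of GCLC, AKR1C1, NQO1 and SRXN1 did not hold these letters, and bases further upstream were not searched. Those of GCLM and TXNRD1 are shown because they hold the core, and that of AKR1C1 because this gene fell most among the members. Each runs from 150 bases before the start to 10 bases after it, 5′ to 3′ on the strand of the gene, and the core is in capitals on whichever strand it was found.
GCLM, chr1:93909421-93909580, minus strand: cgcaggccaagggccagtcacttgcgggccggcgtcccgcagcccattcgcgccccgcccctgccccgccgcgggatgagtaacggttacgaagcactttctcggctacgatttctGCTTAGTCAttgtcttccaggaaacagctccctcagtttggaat
TXNRD1, first start, chr12:104215629-104215788, plus strand: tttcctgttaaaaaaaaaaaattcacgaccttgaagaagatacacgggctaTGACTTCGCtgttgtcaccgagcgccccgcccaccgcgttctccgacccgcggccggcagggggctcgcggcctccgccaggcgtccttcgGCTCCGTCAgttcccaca
TXNRD1, other start, chr12:104286882-104287041, plus strand: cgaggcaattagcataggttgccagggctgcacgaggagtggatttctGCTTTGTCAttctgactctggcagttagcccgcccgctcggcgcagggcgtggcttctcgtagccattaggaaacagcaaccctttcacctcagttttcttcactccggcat
AKR1C1, chr10:4963265-4963424, plus strand: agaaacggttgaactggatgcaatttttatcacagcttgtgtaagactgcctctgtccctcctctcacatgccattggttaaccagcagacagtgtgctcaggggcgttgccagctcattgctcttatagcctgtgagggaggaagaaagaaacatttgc
The GCLM core began 34 bases before the start. The first TXNRD1 window held 2 cores, 99 and 8 bases before the start, and the other held 1, which lay 102 bases before it. The related AP-1 motif TGANTCA, which can share letters with the core, was in none of the members' windows and in 7.71% of all windows. A match of letters does not show that a factor binds there.

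Levels are given as log2 of the processed signal after division by the array's own 75th percentile, so 0 is the level of that percentile. In signal units the percentile stood at 1466 and 1381 for the controls and at 1938 and 2096 for the knockdown samples. KPNA4 had log2 levels of 4.02 and 4.03 in the controls and 2.36 and 2.05 after knockdown, which is a log2 change (mean log2 level after knockdown minus that of the controls) of -1.82, with a standard error of 0.12 and a limma adjusted p of 0.00183. Between 70.2% and 71.0% of 34127 probes per array were well above background, and Pearson correlations across genes were 0.998 within both groups and at most 0.979 between them. GSTM1, HLA-DRB5 and HLA-DRB4, genes whose presence depends on a person's genome, were well above background in the knockdown samples alone. GSTM1, which many people lack, was not well above background in either control and was so in both knockdown samples, at least 1.59-fold higher (limma adjusted p = 0.00428). Its signal was low throughout, at 7.45 and 5.90 units against 18.5 and 19.9 after knockdown. By the same measure HLA-DRB5 was at least 5.90-fold higher (adjusted p = 3.09e-04) and HLA-DRB4 at least 1.11-fold higher, which did not pass the test (adjusted p = 0.124). HLA-DRB4 had log2 levels of -7.71 and -7.41 against -7.11 and -7.35 after knockdown. The dimmest probe well above background stood at -7.42 and -7.34 for the controls but at -7.53 and -7.77 for the knockdown samples. Both control levels of HLA-DRB4 thus exceeded the limit of KPNA4 knockdown 2, and its contrast depends partly on unequal limits. GSTM4, of the same family as GSTM1, read 5.36 and 9.09 units in the controls and 16.5 and 20.6 after knockdown. It was well above background in control 2 and did not pass the test (limma adjusted p = 0.0765). Whether the GSTM1 probe also binds transcripts of related genes was not tested. Whether both groups are the same line was not tested either, and this touches every difference below.

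All 8 squamous epithelial markers were measured, with a median log2 change of 1.27. Of these, 6 were called higher and 1 lower (limma adjusted p under 0.05), against 20.3% and 29.5% of all genes. KRT6A, a keratin of activated squamous epithelium, was -5.44 and -5.39 in the controls and 1.51 and 1.53 after knockdown. DSG3, KRT14, KRT17, CDH1 and KRT5 had log2 changes of 1.00 to 1.73, TP63 did not pass the test, and EPCAM was called lower (-0.51, limma adjusted p = 0.00517). Their summed linear level relative to the 75th percentile was 57.6 and 57.9 in the controls and 63.0 and 63.1 after knockdown, a sum to which the probe of EPCAM adds most. Summed fibroblast markers (5 of 6 measured) were 0.141 and 0.146 against 0.329 and 0.344, leukocyte markers (3 of 5) 0.483 and 0.575 against 0.201 and 0.224, and endothelial markers (2 of 3) 0.0847 and 0.0918 against 0.0643 and 0.0608. Of the 5 fibroblast markers, 3 were called higher and 1 lower, against the same shares of all genes. The 1 called lower was LUM, with a log2 change of -2.58. COL3A1 and PECAM1 were not well above background. The part of these shifts in the results below was not tested, and in bulk RNA a change in the share of cells cannot be told apart from a change per cell.

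After KPNA4 knockdown the NRF2 targets did not move as 1 group. AKR1B10, an aldo-keto reductase that reduces retinal and reactive aldehydes, rose 49.2-fold, a size that depended on the background correction. GCLC, the catalytic subunit of glutamate-cysteine ligase, rose 1.33-fold. AKR1C1, an aldo-keto reductase that inactivates progesterone, fell 3.18-fold, and SLC7A11, HMOX1, TXNRD1 and SRXN1 fell between 1.23-fold and 1.64-fold, though without scaling between arrays none of these 4 was called and SRXN1 turned to 0.21 on the log2 scale. NQO1 and GCLM did not pass the test.

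In all, 2 of 9 members were called higher at a limma adjusted p under 0.05 over all genes, against 20.3% of all genes. On the lower side 5 of 9 were called, against 29.5% of all genes. Without scaling, 3 of 9 were called higher and 1 of 9 lower. Of all 19550 genes, 11257 were then called higher and 1048 lower. At a fold of at least 2, AKR1C1 was the only member called lower, against 3.23% of all genes, and AKR1B10 the only one called higher, against 5.27% of all genes. The members' median log2 change was -0.29, and that of all genes was -0.10, values that depend on the scaling. With quantile normalization these medians were -0.21 and -0.05. Without any scaling between arrays the median of all genes was 0.40 and that of the members 0.21.

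**Figure D1:**
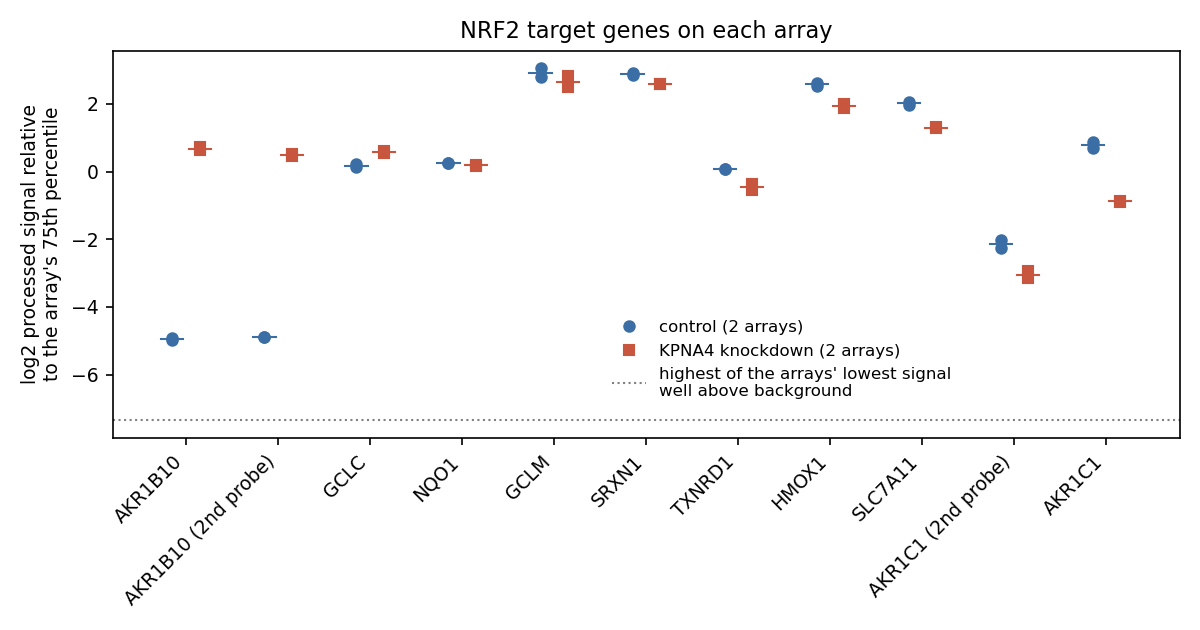
Log2 processed signal relative to the array's 75th percentile (vertical axis) for the 11 probes of the 9 genes, with 1 point per array and a line at each group's mean. AKR1B10 is near -5 on both control arrays and above 0 on both knockdown arrays, while the other probes lie closer together. Positions of different probes are not comparable with each other.

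AKR1B10 changed most among the members. Its brighter probe read -4.92 and -4.98 in the controls and 0.62 and 0.72 after knockdown. The groups were far apart, and the control readings were still well above background. In processed signal units these were 48.4 and 43.8 against 2985 and 3440. The log2 change was 5.62 (standard error 0.07, 95% interval 5.44 to 5.80, limma adjusted p = 2.21e-04), and 99.9% of all genes tested had a change at or below it. The size depended on the background correction: it was 4.33 with normexp, where no gene was called, and 4.43 with normexp without spots in bright surroundings (adjusted p = 0.00241).

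The other AKR1B10 probe read -4.88 in both controls and 0.46 and 0.53 after knockdown. Both probes therefore showed the same separation, with a log2 change of 5.37 for this probe (limma over probes, adjusted p = 1.95e-04). The gene beside AKR1B10 on its chromosome, AKR1B15, is a close paralog whose probe may bind the same transcripts, and it was looked at after its values were seen. It read -5.96 and -5.41 in the controls and -0.46 and -0.41 after knockdown, a log2 change of 5.25 (standard error 0.20, limma adjusted p = 6.95e-04). AKR1B1, the neighbor on the other side and the aldose reductase of the same family, read 3.15 in both controls and 2.87 and 3.02 after knockdown, and did not pass the test (-0.21, adjusted p = 0.0870). Further out, SLC35B4, a nucleotide sugar transporter, had a log2 change of 1.11 (adjusted p = 0.00967) and BPGM, the enzyme that makes bisphosphoglycerate, one of 0.22 (adjusted p = 0.0417). CYREN and CALD1 were also called higher (0.58 and 0.24, adjusted p = 0.00471 and 0.0341). AGBL3 was called lower (-0.47, adjusted p = 0.0425), EXOC4 and CHCHD3 did not pass the test, and LRGUK was not well above background.

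AKR1C1 moved the other way. Its brighter probe read 0.87 and 0.71 in the controls and -0.90 and -0.86 after knockdown. The groups were clearly separate. The log2 change was -1.67 (standard error 0.08, 95% interval -1.89 to -1.45, limma adjusted p = 0.00100), and 0.957% of all genes had a change as low or lower. The other probe of AKR1C1 read -2.24 and -2.01 in the controls and -2.94 and -3.16 after knockdown, again with no overlap but with a smaller log2 change of -0.92 (standard error 0.12, limma over probes, adjusted p = 0.00781).

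The AKR1C genes are close paralogs that lie side by side, and AKR1C probes may bind more than 1 of their transcripts. AKR1C3, which makes testosterone and prostaglandins, read 0.19 and 0.07 in the controls and 0.47 and 0.17 after knockdown. These ranges overlapped, and the log2 change of 0.19 did not pass the test (adjusted p = 0.258). AKR1C4, a liver enzyme, read -5.13 and -5.07 against -5.00 and -4.93 (0.13, adjusted p = 0.158). Its other probe was not well above background on any array, at -9.63 and -9.52 against -9.71 and -9.78. No probe was named for AKR1C2.

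**Figure D2:**
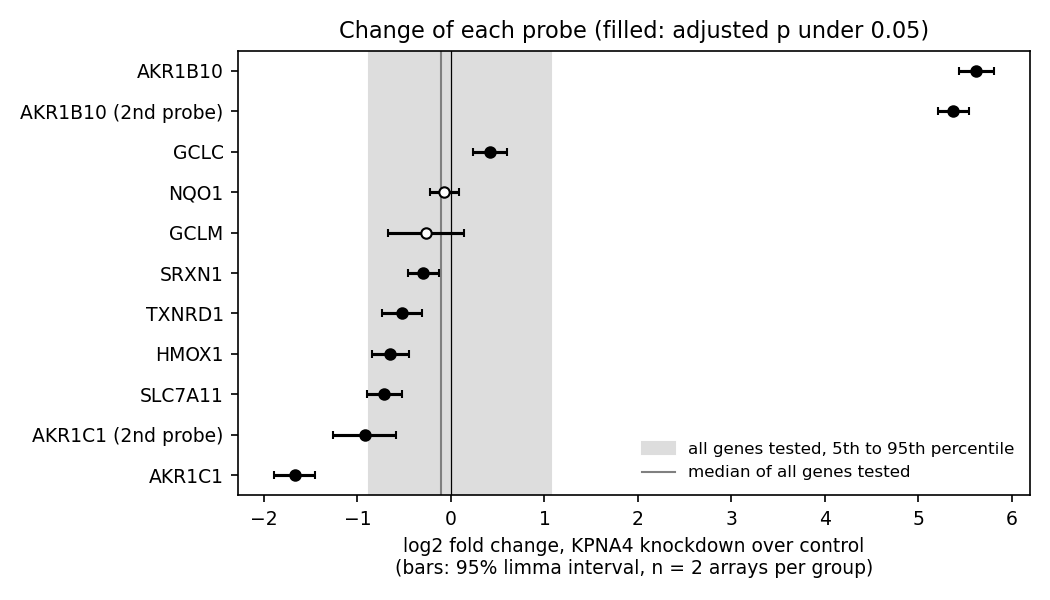
Log2 fold change of each probe, KPNA4 knockdown over control (horizontal axis), with the 95% limma interval from 2 arrays per group. The grey band is the 5th to 95th percentile of all genes tested, -0.88 to 1.07, and both AKR1B10 probes lie far to its right. The brighter AKR1C1 probe lies to its left. The other AKR1C1 probe, at -0.92, is close to the left edge, and its interval of -1.26 to -0.58 reaches into the band.

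Among the members that make glutathione, the transporter and the 2 subunits of the first enzyme differed. SLC7A11, which imports cystine in exchange for glutamate, read 2.07 and 1.96 in the controls and 1.32 and 1.29 after knockdown. All knockdown readings were below all control readings, and the log2 change was -0.71 (standard error 0.07, limma adjusted p = 0.00380). Without scaling it was -0.21 and no longer called (adjusted p = 0.153). GCLC read 0.13 and 0.22 in the controls and 0.61 and 0.56 after knockdown. Here the knockdown readings were the higher ones, with a log2 change of 0.41 (standard error 0.07, 95% interval 0.23 to 0.59, adjusted p = 0.0118). The call was lost when either knockdown array was left out (adjusted p = 0.0728 and 0.0625). GCLM, the subunit that modifies the activity of GCLC, read 2.80 and 3.05 against 2.82 and 2.50. Its groups overlapped and the replicates lay further apart than for any other member's brighter probe, so the log2 change of -0.27 had an interval of -0.68 to 0.15 (adjusted p = 0.208).

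Both members of the thioredoxin branch were called lower. Without scaling their values were -0.02 for TXNRD1 and 0.21 for SRXN1, and the median of all genes was 0.40. TXNRD1, the cytosolic reductase that keeps thioredoxin reduced, read 0.07 in both controls and -0.38 and -0.53 after knockdown. The groups did not overlap, and the log2 change was -0.53 (standard error 0.08, limma adjusted p = 0.0102), which was no longer called without KPNA4 knockdown 2 (adjusted p = 0.0538). SRXN1, which repairs overoxidized peroxiredoxins, read 2.85 and 2.90 in the controls and 2.58 in both knockdown samples. The readings were separate, and the log2 change was -0.29 (standard error 0.06, adjusted p = 0.0193), but the direction turned without scaling (0.21, adjusted p = 0.132). It was also not called when either knockdown array was left out (adjusted p = 0.111 and 0.121) or with a replicate block (adjusted p = 0.0551).

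HMOX1, heme oxygenase 1, breaks heme down to biliverdin, iron and carbon monoxide. It read 2.54 and 2.63 in the controls and 1.99 and 1.89 after knockdown. The groups did not overlap, and the 10 spots of its probe had a standard deviation of 0.0197 to 0.0643 within an array. The log2 change was -0.65 (standard error 0.07, limma adjusted p = 0.00519), and without scaling it was -0.15 and no longer called (adjusted p = 0.259). NQO1, the quinone reductase often used as a readout of NRF2, read 0.25 and 0.26 in the controls and 0.19 and 0.17 after knockdown. The readings lay close together, with both knockdown readings the lower ones. The log2 change of -0.07 had a 95% interval of -0.22 to 0.08 (adjusted p = 0.334), and 53.0% of all genes had a change at or below it. Without scaling it was 0.43 (adjusted p = 0.00954), close to the median of all genes on that scale.

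**Figure D3:**
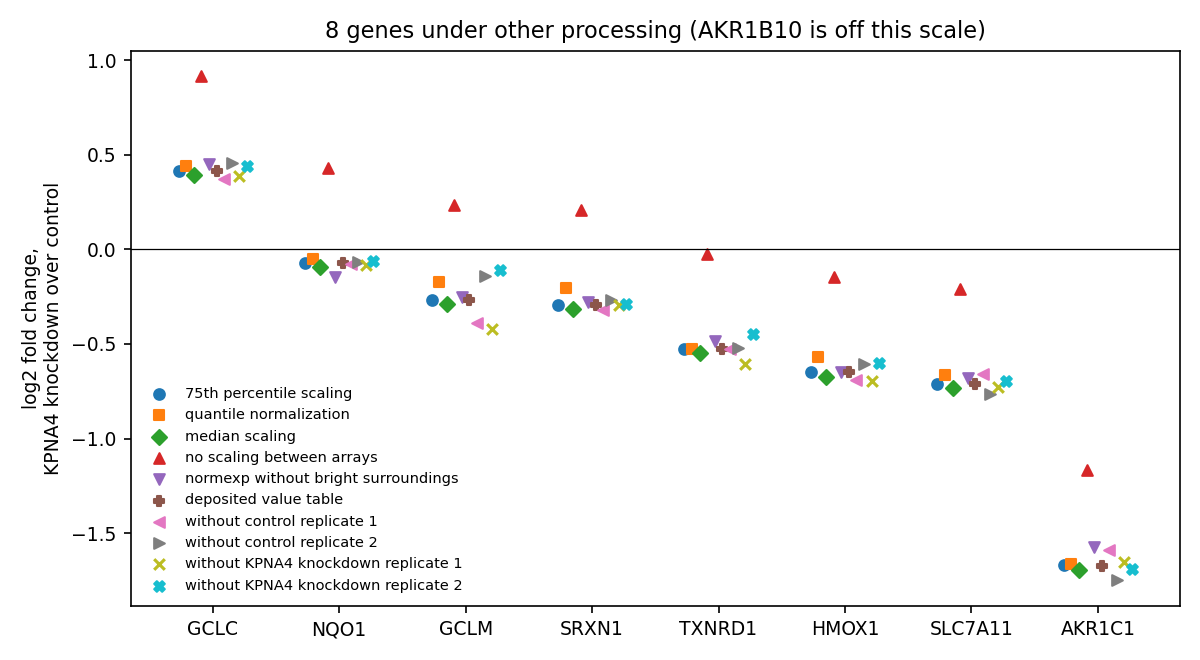
Log2 fold change of the 8 members other than AKR1B10 (vertical axis) under the 75th percentile scaling, 3 other scalings, the deposited ratios, a normexp correction without spots in bright surroundings, and with each array left out. The values without scaling lie above the others for each of these genes, and there NQO1, GCLM and SRXN1 are above 0. The median of all genes without scaling is 0.40.

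NRF2 itself could not be followed, because the single probe of NFE2L2 was too dim on all 4 arrays to count as well above background. Of the 15 regulators listed, 14 were measured, with a median of -0.21. Among these, 2 were called higher and 6 lower, against 20.3% and 29.5% of all genes. SQSTM1, the autophagy receptor that binds KEAP1, fell from 2.78 and 2.87 to 1.89 and 1.91, a log2 change of -0.93 (standard error 0.06, limma adjusted p = 0.00204). This gene is an NRF2 target too. MAFF, a small MAF partner, fell from 0.67 and 0.78 to -0.01 and -0.06 (-0.76, adjusted p = 0.00360), and another, MAFG, from 1.05 and 0.77 to 0.49 and 0.32 (-0.51, adjusted p = 0.0351). Without scaling these were -0.26 for MAFF and -0.01 for MAFG, neither called, and SQSTM1 was the only regulator called lower. The third small MAF, MAFK, read -0.23 and -0.93 against -0.47 and -0.51, with overlapping groups.

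KEAP1 read 1.94 and 1.98 in the controls and 1.59 and 1.65 after knockdown, with a log2 change of -0.34 (adjusted p = 0.0159) that was 0.16 without scaling. BACH1 read 0.87 and 0.70 against 0.30 and 0.30, with a log2 change of -0.48 (adjusted p = 0.0139) that was 0.02 without scaling, and another BACH1 probe, of a non-coding transcript, had a value of 0.08. The related repressor BACH2 was not well above background in the controls and at least 3.51-fold higher after knockdown (adjusted p = 0.00110). GSK3B, a kinase that marks NRF2 for degradation, had a log2 change of -0.60 (adjusted p = 0.00405) that was -0.10 and not called without scaling, and BTRC, the adaptor that reads this mark, one of 0.34 (adjusted p = 0.0121). CUL3 (-0.22, adjusted p = 0.0527), DPP3 (-0.20), NFE2L1 (0.09), PALB2 (-0.03) and RBX1 (0.01) did not pass the test.

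Beyond the 9 members, 66 other reported NRF2 targets were listed, 61 of them with a probe and 57 measured. Of these 57 genes, 19 were called higher, 13 lower and 25 neither, with a median log2 change of -0.02 against -0.10 for all genes. Over all genes 20.3% were called higher and 29.5% lower, which is the background for the count of each role below too. The roles differed in their counts, and no test was made between them.

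The 15 measured glutathione genes had 8 called higher and 4 lower, with a median of 0.29. GPX2, a glutathione peroxidase of epithelia, rose from -4.38 and -4.25 to -2.47 and -2.45 (log2 change 1.86, limma adjusted p = 6.92e-04). The glutathione transferases GSTA4 and GSTM3 had log2 changes of 1.29 (adjusted p = 8.62e-04) and 1.03 (adjusted p = 0.00150), and GSTM1 is given above. On the lower side, the conjugate exporter ABCC3 fell from 0.07 and 0.11 to -2.09 on both knockdown arrays (-2.18, adjusted p = 4.04e-04). CHAC2, which degrades glutathione, had a log2 change of -0.63 (adjusted p = 0.00566), and GSS, which completes its synthesis, one of -0.52 (adjusted p = 0.0141), and without scaling these were -0.13 and -0.02, neither called. SLC3A2, the partner chain of SLC7A11 at the membrane, read 2.46 and 2.61 against 2.93 and 3.02 and so moved opposite to it (0.44, adjusted p = 0.0165). GSR, which regenerates reduced glutathione, had a log2 change of -0.50 (adjusted p = 0.0213) that was 0.00 without scaling, and its other probe had a value of -0.12.

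All 4 thioredoxin genes were measured, with 0 called higher and 3 lower. Without scaling these 3 were above 0 but below the median of all genes, which was then 0.40. TXN, the substrate of TXNRD1, read 6.68 and 6.76 in the controls and 6.34 and 6.26 after knockdown, with a log2 change of -0.42 (limma adjusted p = 0.0123) that was 0.08 without scaling. PRDX1 and PRDX6, which are peroxiredoxins, had log2 changes of -0.35 and -0.29 (adjusted p = 0.0129 and 0.0272), which were 0.15 and 0.22 without scaling. TXNIP, an inhibitor of thioredoxin, had a value of -0.03.

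Among the genes that supply NADPH, the isocitrate dehydrogenase IDH1 was called higher (0.26, limma adjusted p = 0.0320), while TALDO1, TKT, ME1 and PGD did not pass the test. Of the 7 heme and iron genes, the ferritin chains FTH1 and FTL were called lower, like HMOX1, with values of -0.21 and -0.01 and no call without scaling. FTH1 read 6.86 and 6.88 against 6.31 and 6.01 (-0.72, adjusted p = 0.0130), and FTL read 3.90 and 3.95 against 3.41 and 3.40 (-0.52, adjusted p = 0.00534). The porphyrin transporter ABCB6 was called higher (0.28, adjusted p = 0.0271). BLVRA and BLVRB, the biliverdin reductases that act after HMOX1, had values of -0.02 and -0.03.

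The 13 measured carbonyl and xenobiotic enzymes had 5 called higher and 2 lower, with a median of -0.16. CYP4F11, a fatty acid hydroxylase, rose from -3.89 and -3.86 to -2.34 and -2.37 (1.52, limma adjusted p = 6.89e-04). The aldehyde dehydrogenases ALDH3A1 and ALDH3A2 had log2 changes of 1.11 (adjusted p = 0.00387) and 0.48 (adjusted p = 0.00697). CBR3, a carbonyl reductase, fell from 0.81 and 0.78 to 0.07 and 0.09 (-0.71, adjusted p = 0.00267), and its value was -0.21 and not called without scaling. UGT1A6, a glucuronosyltransferase, was called lower (-0.28, adjusted p = 0.0308), and this was 0.22 without scaling.

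Among 12 measured targets with regulatory or other roles, 4 were called higher and 1 lower. SLPI, a secreted antiprotease of epithelia, rose from -3.45 and -3.50 to -0.15 and -0.17 (3.32, limma adjusted p = 2.99e-04). CD36, a fatty acid receptor, was not well above background in the controls and at least 2.59-fold higher after knockdown (adjusted p = 0.00205). RIT1, a small GTPase, had a log2 change of 1.60 with a wide standard error of 0.43 (adjusted p = 0.0423), and PIR, an iron-binding nuclear protein, one of 0.80 (adjusted p = 0.00229). FAM117B was called lower (-0.43, adjusted p = 0.00892), and this was 0.07 without scaling.

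**Figure D4:**
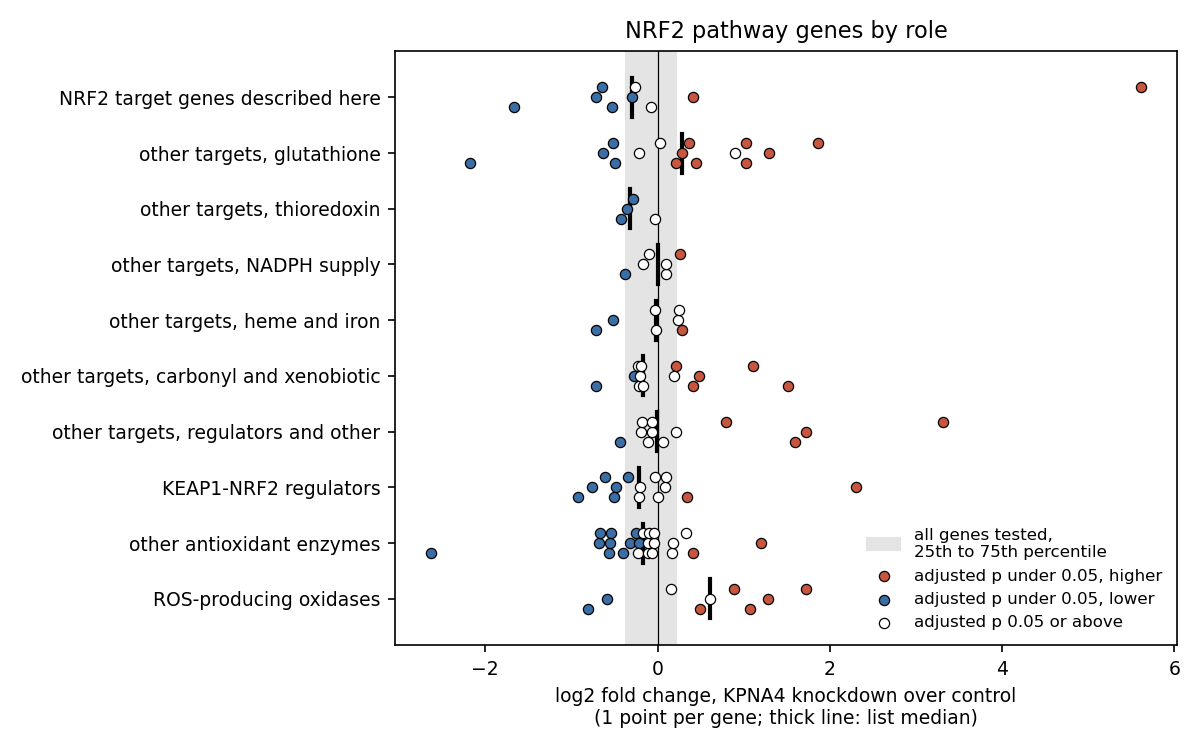
Log2 fold change, KPNA4 knockdown over control (horizontal axis), of the members, the other NRF2 targets by role, the regulators and the comparison lists, with 1 point per gene and a thick line at each list's median. The grey band is the 25th to 75th percentile of all genes tested, -0.37 to 0.21, and GSTM1, BACH2, CD36 and GPX7 stand at fitted values although they were not well above background in the controls.

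For comparison, 23 of 25 antioxidant enzymes that are on none of the NRF2 lists were measured. Of these, 2 were called higher and 10 lower, against 20.3% and 29.5% of all genes, with a median of -0.17. SOD2, the mitochondrial superoxide dismutase and a target of NF-κB, fell from 5.48 and 5.56 to 2.95 and 2.82 (-2.63, limma adjusted p = 4.61e-04). GPX4, which reduces lipid peroxides, and MSRB3, a methionine sulfoxide reductase, had log2 changes of -0.68 and -0.66 (adjusted p = 0.00284 and 0.00336), which were -0.18 and -0.16 and not called without scaling. GPX7 was at least 1.91-fold higher (adjusted p = 0.00441) and MSRB1 had a value of 0.41 (adjusted p = 0.00811).

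Of 14 oxidases that produce reactive oxygen species, 9 were measured, with a median of 0.61. Among these 9, 5 were called higher and 2 lower, against 20.3% and 29.5% of all genes. DUOX2, a dual oxidase of epithelia, rose from -5.09 and -4.88 to -3.22 and -3.31 (1.72, limma adjusted p = 0.00140). NOXA1, an activator of NADPH oxidase, and DUOX1 had log2 changes of 1.28 (adjusted p = 0.00173) and 1.07 (adjusted p = 0.00142). AOX1, an aldehyde oxidase, was called lower (-0.81, adjusted p = 0.00207).

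SLC7A11 is also a target of ATF4, the factor of the amino acid response. All 16 genes of the ATF4 list were measured, with a median of -0.20. Here 5 were called higher and 7 lower, against 20.3% and 29.5% of all genes. ATF4 itself did not pass the test (-0.12, limma adjusted p = 0.155). CHAC1, a glutathione-degrading enzyme, had a log2 change of -0.80 (adjusted p = 0.00529), while ASNS and PSAT1, which make asparagine and serine, were called lower (-0.46 and -0.45, adjusted p = 0.0101 and 0.00926) with values of 0.04 and 0.06 without scaling. SLC7A5, PHGDH and DDIT4 were called higher, with log2 changes of 0.43, 0.42 and 0.39 (adjusted p = 0.0222, 0.00823 and 0.0105).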

How the data were processed

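RNA of 2 control and 2 KPNA4 knockdown samples carried Cy3 on Agilent whole human genome arrays, with 1 array for each sample and all 4 on 1 slide in 1 scan. Groups were taken from the sample labels. For each array the authors deposited the Agilent Feature Extraction 11.0.1.1 output, whose processed signal intensity is background-subtracted and spatially detrended but not scaled between arrays. They also deposited a table of 24209 probes whose values were found to be a ratio, the processed signal divided by about the array's 75th percentile, with 99.6% of values within 0.01 on the log2 scale.

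Log2 of the processed signal was taken. Control spots and flagged outlier spots (333 to 355 of 43118 gene spots per array) were left out, no gene spot was saturated, replicate spots were averaged per probe, and each array's 75th percentile was subtracted. A probe was kept if both arrays of 1 group or more had it well above background, and the brightest probe stood for a gene. This left 19550 genes, 15114 of them with a symbol. Transcript accessions were matched to a RefSeq table of GRCh38.p14, which named 25771 of 34127 probes. The array grid refers to another build, so this table gave only names and neighbors, and promoter windows came from RefSeq's table of GRCh38.p14. Probe sequences were not used here.

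The comparison used lmFit and eBayes of limma 3.58.1 under R 4.3.3 (Benjamini-Hochberg, threshold 0.05), after a test on simulated data. A gene not well above background in 1 group was given a lower limit of its fold, set against the dimmest probe well above background on each array. The number of arrays limits the precision. Named genes are all members with every probe, KPNA4, the measured regulators, the 3 largest called changes each way without overlap in each other list, list genes above background in 1 group only, paralogs and GSTM1. HLA-DRB5, HLA-DRB4, chromosomal neighbors, single markers and genes given beside a related one, or as not called, were chosen after their values were seen. The members and lists were chosen with earlier results of these data known. Alternatives were other scalings, background corrections, the deposited ratios, other filters on dim or flagged spots, an average of a gene's probes, the trend and robust options of limma, a replicate block, each array left out, and a threshold of 0.01. The normexp fit without spots in bright surroundings (local background over 1000) was added after the data were seen. Single genes of the lists are not reported here, and the counts still include them.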

Additional observations from a re-analysis of the deposited data

How the results depend on the processing

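Of the counts, none moved by over 1.5 times under quantile normalization, median scaling, the deposited ratios, flagged spots kept, an average of a gene's probes (which gives no count of probes), limma's options trend and robust, or without either control array. Without scaling, 11257 genes were called higher and 1048 lower. Of these, the members gave 3 higher and 1 lower (4 and 2 probes). The other targets gave 38 and 1, the regulators 6 and 1, and the other antioxidant enzymes 12 and 1. The share of calls that were higher was 40.8% with the 75th percentile, 47.1% with quantiles and 91.5% without scaling. SRXN1 then turned to 0.21, and TXNRD1 (-0.02), HMOX1 (-0.15) and SLC7A11 (-0.21) were no longer called.

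Under normexp with limma, 0 genes were called in every list and in all, although 1165 genes and 4 members had an unadjusted p under 0.05, with AKR1B10 at 4.33. KPNA4 knockdown 2 has a local background that reaches 51625, and without spots in bright surroundings 1819 genes were called higher and 1932 lower, with other targets at 10 and 7, regulators at 0 higher and other antioxidant enzymes at 1 higher. With no filter, 12 other targets were called higher, and with probes well above background on all 4 arrays, 1 regulator and 1 other antioxidant enzyme. At a threshold of 0.01, 2130 genes were called higher and 2339 lower, the members 1 and 3, other targets 11 and 5, regulators 1 and 3, and other antioxidant enzymes 6 lower.

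Leaving out 1 array, in which the lone sample is assumed to vary like the other group, gave 2148 to 3596 genes higher and 2521 to 4746 lower, members 1 to 2 and 3 to 5, their probes 2 to 3 and 4 to 6, other targets 9 to 17 and 6 to 10, regulators 1 to 3 and 3 to 6, and other antioxidant enzymes 1 to 2 and 5 to 7. The low ends came without a knockdown array. Same-numbered samples did not deviate together (r = -0.03 across genes), and the replicate block left SRXN1 at -0.29 but uncalled and moved no count by over 1.5 times. AKR1B10 ranged from 4.33 to 6.12 and AKR1C1 from -1.75 to -1.17, and both lost their call under normexp alone.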
